A study of Mus musculus with 4 samples.

Results

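The p53 target and apoptosis genes described here were 10 genes chosen by name (Cdkn1a, Mdm2, Btg2, Apaf1, Fas, Ccng1, Bax, Gadd45a, Perp and Ei24), each read by every probe set that the platform annotation gave to that gene symbol alone. The rule found 11 of the 12488 probe sets on the Affymetrix MG_U74Av2 array, for 9 of the 10 genes. No probe set carried the single symbol Bax, so Bax was not analysed here. Cdkn1a and Fas had 2 probe sets each, and the second Fas probe set was one of the array's 66 control probe sets.

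Total liver RNA came from male mice of the B6SJL hybrid background, 58 to 60 days old, in 2 groups of 2 arrays. Wild-type mice carried no transgene, and PEPCK-TAg mice carried the large T and small t of SV40, driven by the promoter of Pck1, the phosphoenolpyruvate carboxykinase gene, which hepatocytes transcribe. Both groups ate a diet with 10% protein and 70% carbohydrate for 4 weeks from weaning. The labels speak of duplicate measurements and leave unsaid whether each array had its own mouse, so every p-value reflects no more than the scatter of the arrays at hand, possibly technical scatter. Albumin (Alb), the main hepatocyte product, gave the highest signal on each of the 4 arrays, from 12445.7 to 16722.8. Pck1 itself, whose promoter drives the transgene, had signals of 2371.9 and 2307.9 in wild type against 1605.4 and 565.5 in PEPCK-TAg, and the difference did not pass the test (limma, Benjamini-Hochberg adjusted p = 0.121).

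The transcription factor p53 is stabilised by DNA damage and other stress and then raises the transcription of genes that stop the cell cycle, repair DNA or start apoptosis. Its target Mdm2 encodes the ubiquitin ligase that returns p53 to a low level, and Cdkn1a encodes p21, an inhibitor of cyclin-dependent kinases. SV40 large T binds p53 and blocks its binding to DNA while the protein itself is stabilised, and also binds the retinoblastoma protein. Many p53 targets answer to other transcription factors as well. The question put to the data was which of the known p53 targets differed between livers with and without large T.

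Of the 10 probe sets tested by limma, 4 rose in PEPCK-TAg and 0 fell at a Benjamini-Hochberg adjusted p under 0.05. The 4 read 3 genes, Cdkn1a with both of its probe sets, Btg2 and Apaf1. The 6 that did not pass read Gadd45a, Fas, Mdm2, Perp, Ei24 and Ccng1. Over all 7453 probe sets tested, 9.47% were called, 6.40% as higher and 3.07% as lower. At an unadjusted limma p under 0.05, 7 of the 10 were higher and 0 lower, where 15.5% of all tested probe sets were higher and 823 of the 7453 lower. The PEPCK-TAg arrays exceeded both wild-type arrays in 7 of the 10, against 30.2% of all tested probe sets, and were lower than both in 1, Ei24, against 26.3%. All 10 passed the filter on dim probe sets. Apaf1 and the dimmer Cdkn1a probe set had a wild-type mean below the filter's signal of 48.1. Both are among the 4 calls, and both entered the test through PEPCK-TAg.

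**Figure D1:**
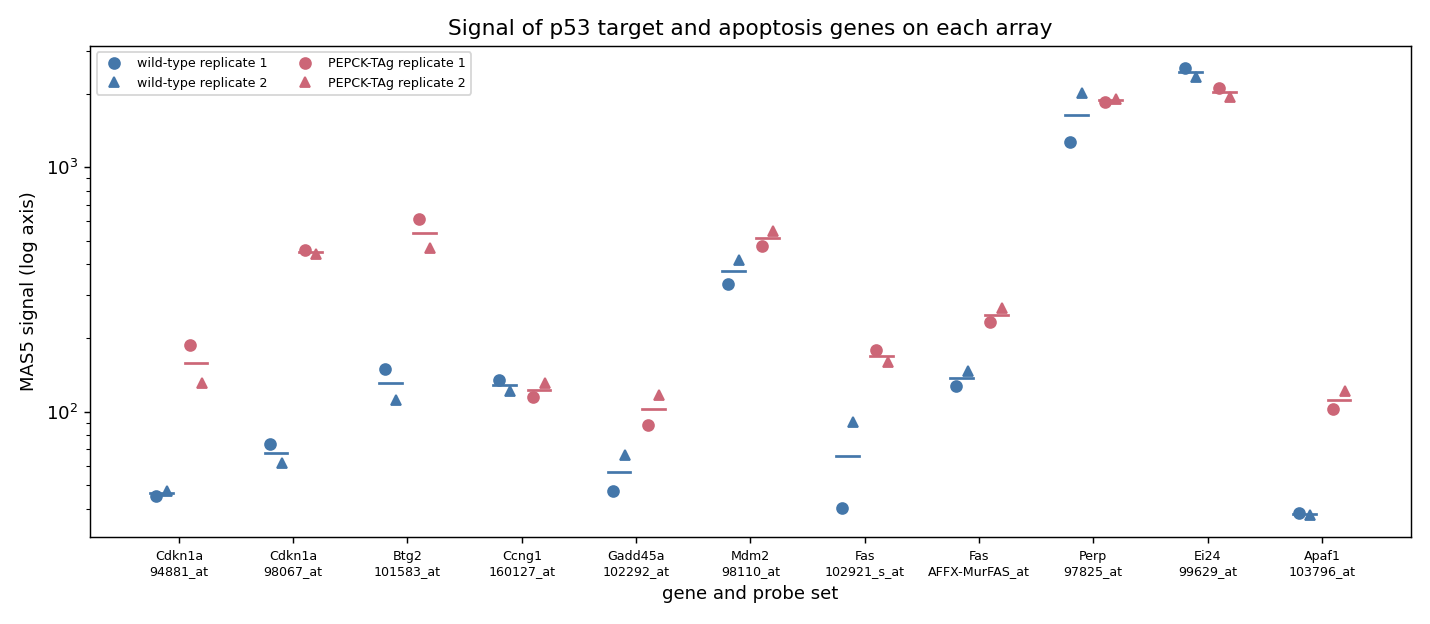
MAS5 signal on a log axis for each of the 11 probe sets, with wild-type arrays in blue, PEPCK-TAg arrays in red, circles for replicate 1, triangles for replicate 2 and a bar at each group mean. The arrays of the groups lie apart for Cdkn1a, Btg2, Gadd45a, Mdm2, Fas, Ei24 and Apaf1 and overlap for Ccng1 and Perp.

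The promoter windows of the genes that rose are shown because p53 acts through a DNA motif whose half-site is a decamer. The windows let the letters be read beside the values. A single decamer is a half-site and not a full p53 site. Each window is the RefSeq sequence of GRCm38.p6 from 250 bases before to 50 bases after an annotated transcript start, written 5′ to 3′ on the gene's own strand. Capitals mark matches to the p53 consensus decamer, which reads the same on both strands. RefSeq gave Cdkn1a a pair of starts, 2790 bases apart. The windows are chr17:29090729-29091028 on the plus strand for the upstream start of Cdkn1a, chr17:29093519-29093818 on the plus strand for its downstream start, chr1:134079106-134079405 on the minus strand for Btg2 and chr10:91082694-91082993 on the minus strand for Apaf1.
Cdkn1a upstream start: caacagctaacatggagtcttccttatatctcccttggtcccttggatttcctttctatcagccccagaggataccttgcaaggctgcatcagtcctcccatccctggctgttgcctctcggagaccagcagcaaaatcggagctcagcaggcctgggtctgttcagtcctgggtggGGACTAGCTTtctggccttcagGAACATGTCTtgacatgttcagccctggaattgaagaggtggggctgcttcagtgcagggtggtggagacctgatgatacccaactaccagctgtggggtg
Cdkn1a downstream start: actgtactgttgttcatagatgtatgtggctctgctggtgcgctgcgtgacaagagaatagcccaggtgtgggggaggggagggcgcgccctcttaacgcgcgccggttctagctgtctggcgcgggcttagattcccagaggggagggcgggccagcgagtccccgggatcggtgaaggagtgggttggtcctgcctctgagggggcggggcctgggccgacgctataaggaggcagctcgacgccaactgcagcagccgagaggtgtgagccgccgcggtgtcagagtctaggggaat
Btg2: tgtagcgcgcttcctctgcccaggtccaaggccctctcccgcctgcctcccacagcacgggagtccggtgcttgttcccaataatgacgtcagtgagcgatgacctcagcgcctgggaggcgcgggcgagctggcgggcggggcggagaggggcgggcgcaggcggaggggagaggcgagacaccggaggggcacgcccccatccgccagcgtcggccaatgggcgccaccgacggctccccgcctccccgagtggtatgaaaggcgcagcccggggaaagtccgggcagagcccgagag
Apaf1: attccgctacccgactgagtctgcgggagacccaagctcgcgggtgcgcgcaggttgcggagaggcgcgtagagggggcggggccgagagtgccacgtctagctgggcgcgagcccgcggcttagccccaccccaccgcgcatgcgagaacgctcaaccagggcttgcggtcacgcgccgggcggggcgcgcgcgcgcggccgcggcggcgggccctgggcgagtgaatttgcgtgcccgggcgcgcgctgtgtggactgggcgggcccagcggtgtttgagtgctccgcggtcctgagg

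The window at the upstream start of Cdkn1a held 2 decamers, GGACTAGCTT and GAACATGTCT, and the other 3 windows held 0. The second decamer began 51 bases before the upstream start, and so 2841 bases before the downstream start. The 10 bases after it departed from the consensus at 1 position, and the 10 bases after the first decamer at 7. Of all 32851 windows of this length in the table, 8.36% held a decamer. Among the 10 windows of 9 of the chosen genes, 6 held one, and the other 5 of these belonged to Gadd45a, Bax, Ei24, Mdm2 and Ccng1, of which Bax was not measured and the other 4 were not called in the arrays. Perp was not in the table. The core letters CATG, which lie inside some decamers, were in 5 of the 10 windows and in 61.1% of all, and TATAAA on either strand was in 0 of the 10 and in 13.6% of all. The GC content was 54.7% in the upstream and 64.7% in the downstream window of Cdkn1a, 72.0% for Btg2 and 74.7% for Apaf1, against a median of 52.7% over all windows. A match describes letters only, and a window without one says nothing about p53 at that gene.

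Among the genes of cell cycle arrest, Cdkn1a had the largest rise of the set. Its probe set for the mRNA U09507 had signals of 73.8 and 61.8 in wild type against 459.9 and 441.0 in PEPCK-TAg. The mean rose from 67.8 ± 8.49 (SD, n = 2) to 450.4 ± 13.4 (SD, n = 2), a ratio of 6.64. The log2 change, taken throughout on log2(signal + 13), was 2.52 ± 0.18 (SE) with a limma adjusted p of 0.00139. The 2 PEPCK-TAg arrays lay close to each other and far above both wild-type arrays. The other Cdkn1a probe set, for the sequence AW048937, was dimmer, with 45.2 and 47.5 in wild type against 186.7 and 130.6 in PEPCK-TAg. It rose by 1.51 ± 0.25 (log2 change ± SE; limma adjusted p = 0.0159), a smaller change than that of the U09507 probe set, and the difference between the probe sets was not tested. Without PEPCK-TAg replicate 1 it had a change of 1.28 and lost its call (limma adjusted p = 0.0806), while the U09507 probe set kept its call without any 1 of the 4 arrays.

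Btg2 encodes a protein that slows the cell cycle and recruits the deadenylase that shortens mRNA tails, and it is both a p53 target and an immediate early gene. Its signals were 149.3 and 111.5 in wild type against 613.2 and 465.2 in PEPCK-TAg. The mean rose from 130.4 ± 26.7 (SD, n = 2) to 539.2 ± 105 (SD, n = 2), by 1.95 ± 0.22 in log2 (SE; limma adjusted p = 0.0046). The groups lay apart, and the call held without any 1 of the 4 arrays.

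Gadd45a, which encodes a stress protein that acts on growth arrest and DNA repair, had signals of 47.2 and 66.3 in wild type against 88.1 and 117.0 in PEPCK-TAg. The arrays did not overlap, but the log2 change of 0.73 (95% interval 0.09 to 1.37) did not pass (limma adjusted p = 0.148). Ccng1, which encodes cyclin G1, a p53 target that works with a phosphatase on Mdm2, measured 134.5 and 121.9 in wild type against 115.2 and 131.0 in PEPCK-TAg. These overlapped, with a log2 change of -0.05 and a 95% interval from -0.52 to 0.41 (limma adjusted p = 0.894). Its sign turned when the first array of either group was left out (0.01 for wild type, 0.03 for PEPCK-TAg).

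Mdm2, the feedback arm of the pathway, had signals of 331.6 and 417.1 in wild type against 477.9 and 546.9 in PEPCK-TAg. The means were 374 ± 60.5 (SD, n = 2) and 512 ± 48.8 (SD, n = 2), a ratio of 1.37. Both PEPCK-TAg arrays were above both wild-type arrays by a gap smaller than the spread inside wild type, and the log2 change of 0.45 (95% interval 0.00 to 0.89) did not pass (limma adjusted p = 0.187). The interval of Mdm2 lies below that of the brighter Cdkn1a probe set, 2.09 to 2.95. That the 2 genes differ in their change was not tested directly.

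Among the genes of apoptosis, Fas encodes the death receptor at the cell surface that hepatocytes and lymphocytes carry. Its tested probe set, whose suffix marks probes that can be shared with other transcripts, had signals of 40.3 and 91.0 in wild type against 177.8 and 159.4 in PEPCK-TAg. The PEPCK-TAg arrays were higher by 1.28 in log2 (95% interval 0.49 to 2.08), which did not pass (limma adjusted p = 0.062). Its wild-type arrays differed widely. The change was 1.77 without wild-type replicate 2, where it passed (limma adjusted p = 0.0168), and 0.80 without wild-type replicate 1, where it did not (limma adjusted p = 0.103). The control probe set for mouse Fas, AFFX-MurFAS_at, had signals of 127.1 and 146.2 in wild type against 232.6 and 264.9 in PEPCK-TAg, a log2 difference of 0.81 in the same direction. Control probe sets were left out of the tests. With this one added to the fit, an alternative chosen after its values were seen, it passed (limma adjusted p = 0.0408).

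Apaf1 encodes the scaffold of the apoptosome, which activates caspase-9 once cytochrome c leaves the mitochondria. Its signals were 38.4 and 37.8 in wild type against 102.5 and 121.1 in PEPCK-TAg. The mean rose from 38.1 ± 0.424 (SD, n = 2) to 112 ± 13.2 (SD, n = 2), by 1.28 ± 0.25 in log2 (SE; limma adjusted p = 0.0246). The groups lay apart, but the gene was dim in wild type and the call did not hold without any 1 array. Leaving out a wild-type array gave a limma adjusted p of 0.0566 (replicate 1) or 0.052 (replicate 2). Leaving out a PEPCK-TAg array gave 0.0735 (replicate 1) or 0.135 (replicate 2), and dropping the filter on dim probe sets gave 0.0634.

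Perp, which encodes a membrane protein of cell junctions and a p53 effector of apoptosis, measured 1271.2 and 2010.0 in wild type against 1850.6 and 1908.2 in PEPCK-TAg. The wild-type arrays enclosed both PEPCK-TAg arrays, and the log2 change was 0.23 (95% interval -0.31 to 0.77; limma adjusted p = 0.58). It was -0.10 without wild-type replicate 1. Ei24, also called PIG8, encodes a membrane protein of the endoplasmic reticulum found as a p53-induced gene. It measured 2538.6 and 2342.1 in wild type against 2101.1 and 1943.8 in PEPCK-TAg. It was the one tested probe set of the 10 with both PEPCK-TAg arrays below both wild-type arrays, at a log2 change of -0.27 (95% interval -0.61 to 0.07) that did not pass (limma adjusted p = 0.282).

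**Figure D2:**
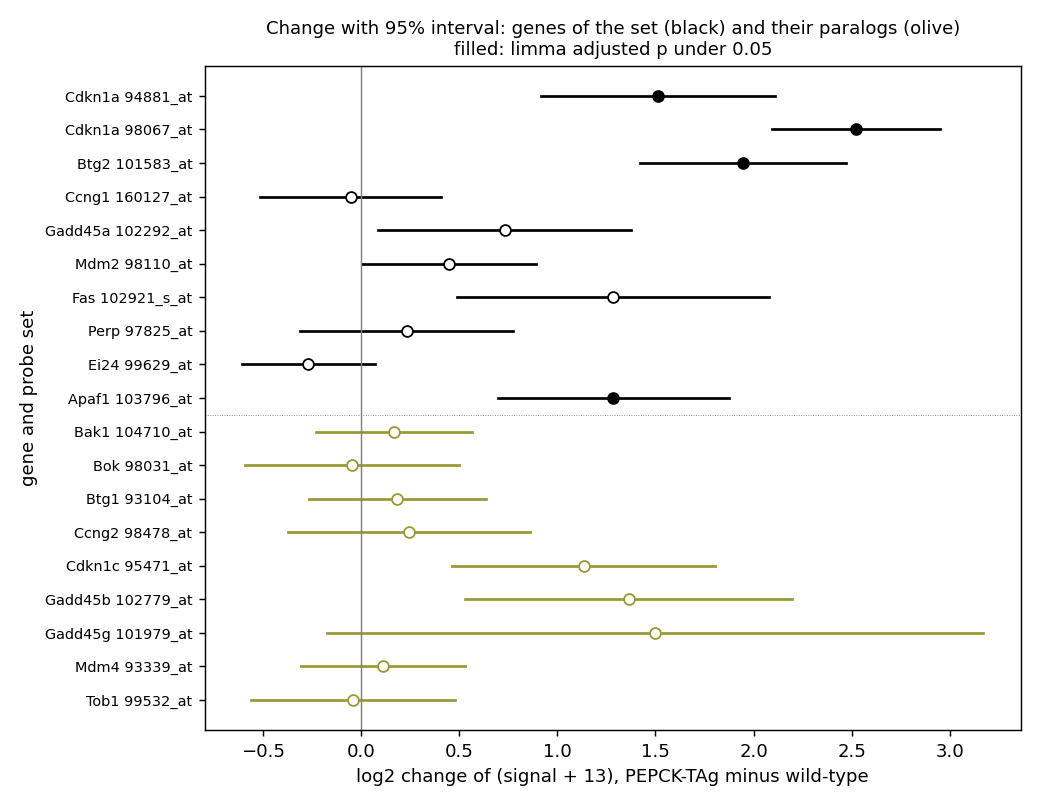
Log2 change of (signal + 13), PEPCK-TAg minus wild-type, with its 95% limma interval, for the 10 tested probe sets (black) and 9 paralogs (olive); filled points have an adjusted p under 0.05. Cdkn1a, Btg2 and Apaf1 are filled, and the intervals of Perp, Ei24 and Ccng1 include 0.

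Relatives of these genes by family were read from a list of 11 paralogs, of which 9 were measured above the filter. Of these, 0 passed (limma adjusted p under 0.05), where 6.83% of all genes tested were called higher and 3.01% lower. At an unadjusted limma p under 0.05, 2 were higher, Cdkn1c and Gadd45b, against 16.6% of all genes tested. Both had a wild-type mean below the filter, so they entered the test through PEPCK-TAg. In the Cdkn1 family of kinase inhibitors, Cdkn1c had signals of 33.1 and 26.2 in wild type against 82.2 and 78.5 in PEPCK-TAg. Its log2 change of 1.14 (95% interval 0.46 to 1.81) came close to the threshold (limma adjusted p = 0.0549), and it passed in the fit without a mean-variance trend (limma adjusted p = 0.0243). Cdkn1b was below the filter in both probe sets, with signals from 4.1 to 15.5 in one and 13.4 to 24.0 in the other, and was not tested.

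In the Gadd45 family, Gadd45b measured 28.9 and 27.6 in wild type against 66.8 and 128.2 in PEPCK-TAg, a log2 change of 1.36 that did not pass (limma adjusted p = 0.0596) and that passed without PEPCK-TAg replicate 1 (1.77; limma adjusted p = 0.0369). Gadd45g measured 88.8 and 76.5 in wild type against 618.7 and 102.2 in PEPCK-TAg. Its high value came from PEPCK-TAg replicate 1 alone, and the ratio of the means of 4.36 did not pass (limma adjusted p = 0.231). The log2 change was 0.27 without that array. Without PEPCK-TAg replicate 2 it was 2.73 and passed (limma adjusted p = 0.000567). All 3 Gadd45 genes had both PEPCK-TAg arrays above both wild-type arrays, as did 30.2% of all tested probe sets. None of the 3 passed with all 4 arrays. For Gadd45g the lower PEPCK-TAg array, at 102.2, lay little above the higher wild-type array, at 88.8.

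The relatives of Btg2, Ccng1, Mdm2 and Bax overlapped between the groups or lay close together. Btg1 had a log2 change of 0.18 (95% interval -0.27 to 0.64) and Tob1 of -0.04 (-0.56 to 0.48), against 1.95 for Btg2. The value was 0.24 (-0.37 to 0.86) for Ccng2, 0.11 (-0.31 to 0.53) for Mdm4, an inhibitory partner of Mdm2, and for the Bax relatives Bak1 and Bok 0.17 (-0.23 to 0.57) and -0.05 (-0.59 to 0.50). The limma adjusted p of these 6 genes lay between 0.586 and 0.926. A second Mdm4 probe set below the filter had signals of 5.7 and 2.6 in wild type against 25.7 and 15.1 in PEPCK-TAg.

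The wider list of other p53 targets held 45 genes. The array carried 29 of them, and 25 passed the filter. Of these 25, 2 rose and 0 fell, where 6.83% of all 5650 genes tested were called higher and 3.01% lower, and at an unadjusted p under 0.05 there were 6 higher and 0 lower, against 16.6% and 11.3% of all genes tested (limma adjusted p under 0.05 for the calls). The list median was 0.25 in log2, against 0.01 over all tested probe sets and 0.02 over all tested genes. Gtse1, a microtubule-binding protein of the G2 and S phases that restrains p53, rose from signals of 24.9 and 39.4 to 98.7 and 91.8 (1.28 ± 0.29, log2 change ± SE; limma adjusted p = 0.0411). Its wild-type mean lay below the filter, so it entered the test through PEPCK-TAg. Tap1, a peptide transporter of antigen presentation that interferon also induces, rose from 361.2 and 330.4 to 628.3 and 559.8 (0.76 ± 0.16, log2 change ± SE; limma adjusted p = 0.0366). Its second probe set ran the other way without passing, at 81.8 and 51.6 in wild type against 39.2 and 56.4 in PEPCK-TAg.

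Tap1 lost its call without any 1 array (limma adjusted p from 0.0748 to 0.155), and Gtse1 lost its own when wild-type replicate 1 (0.0944) or the second PEPCK-TAg array (0.125) was left out and was below the filter, so untested, without the first PEPCK-TAg array. Of the genes next in order of p, the lysosomal protease Ctsd had a log2 change of 0.52, the polo-like kinase Plk2 of 0.53 and Ddit4, an inhibitor of mTOR signalling, of 0.59, beside Gadd45b above. The limma adjusted p of these 3 was 0.109, 0.148 and 0.187. The list count was 0 with no filter, with quantile normalization and with median centring. With a PEPCK-TAg array left out, neither Gtse1 nor Tap1 was called. The gene called was then Gadd45b (without replicate 1) or Gadd45g (without replicate 2).

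Of 23 regulators of p53, 15 were on the array and 11 were measured, of which 1 rose and 0 fell (limma adjusted p under 0.05), with 2 higher and 1 lower at an unadjusted p under 0.05 and a median of 0.25. With 11 genes, 1 call higher is near the 6.83% of all genes. At an unadjusted limma p under 0.05, 16.6% of all genes tested were higher and 11.3% lower. The gene that rose was Chek1, the checkpoint kinase of replication stress, which is also transcribed with the cell cycle. It had signals of 34.3 and 40.1 in wild type against 378.2 and 283.9 in PEPCK-TAg, a log2 change of 2.77 ± 0.22 (SE; limma adjusted p = 0.00179), and was called without any 1 of the arrays. Its wild-type mean lay below the filter, so PEPCK-TAg brought it into the test. Chek2, the kinase of double-strand break signalling, measured 71.0 and 85.7 against 139.3 and 127.0 and did not pass (limma adjusted p = 0.0986). Cop1, a ubiquitin ligase of p53, measured 282.3 and 259.2 in wild type against 200.4 and 201.5 in PEPCK-TAg (limma adjusted p = 0.18). Hdac1 had a log2 difference of 0.43 and Prkdc of 0.27, and neither passed (limma adjusted p = 0.421 and 0.496). The p53 gene Trp53 was not analysed here, because no probe set carried its symbol alone.

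Of 50 genes of the apoptosis machinery, 43 were on the array and 35 were measured, of which 3 rose and 2 fell (limma adjusted p under 0.05), and 5 were higher and 3 lower at an unadjusted p under 0.05. These shares are near those over all genes tested, 6.83% higher and 3.01% lower by adjusted p and 16.6% and 11.3% by unadjusted p. The median was -0.01, and 15 of the 35 changes lay above 0. Birc5, which encodes survivin and is made in dividing cells, had signals of 21.8 and 5.6 in wild type against 260.4 and 187.1 in PEPCK-TAg (3.20 ± 0.37, log2 change ± SE; limma adjusted p = 0.00505), and it too passed the filter through PEPCK-TAg alone. Casp2, an initiator caspase, rose from 167.5 and 155.0 to 376.5 and 344.6 (1.10 ± 0.17, log2 change ± SE; limma adjusted p = 0.0127), while the other Casp2 probe set had a change of 0.34 that did not pass (limma adjusted p = 0.306). Bcl2l11, which encodes the pro-apoptotic protein Bim, rose from 181.8 and 119.7 to 381.9 and 324.1 (1.18 ± 0.23, log2 change ± SE; limma adjusted p = 0.0266). Its second probe set above the filter did not share the rise (-0.02; limma adjusted p = 0.964).

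The genes that fell were Cideb, a hepatocyte protein of lipid droplets and lipoprotein loading that was named for its likeness to an apoptotic nuclease factor, and Pdcd4, an inhibitor of translation. Cideb had signals of 2760.2 and 2495.9 in wild type against 1637.7 and 1664.0 in PEPCK-TAg (-0.67 ± 0.14, log2 change ± SE; limma adjusted p = 0.0345). Pdcd4 had 2176.2 and 1629.5 in wild type against 1003.3 and 1081.6 in PEPCK-TAg (-0.85 ± 0.18, log2 change ± SE; limma adjusted p = 0.0364). Of the other genes of smallest p, the log2 difference was 0.97 for Casp4, 0.52 for the DNA-damage enzyme Parp1, and -0.50 and 0.39 for the anti-apoptotic Bcl2l2 and Mcl1, and none of the 4 passed (limma adjusted p from 0.0977 to 0.269).

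Several of these calls were lost when 1 array was left out. Cideb lost its call without any 1 array (limma adjusted p from 0.0594 to 0.132), and Pdcd4 when wild-type replicate 1 (0.109) or either PEPCK-TAg array (0.107 and 0.0729 for replicates 1 and 2) was left out. Bcl2l11 lost it without the second wild-type array (0.0616) and also without the first PEPCK-TAg array (0.0801), and Casp2 without PEPCK-TAg replicate 1 (0.0508). With PEPCK-TAg replicate 1 left out, Birc5 was not tested and 0 genes were called higher. Genes called lower numbered 1 with wild-type replicate 2 left out and 0 with any other array left out.

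**Figure D3:**
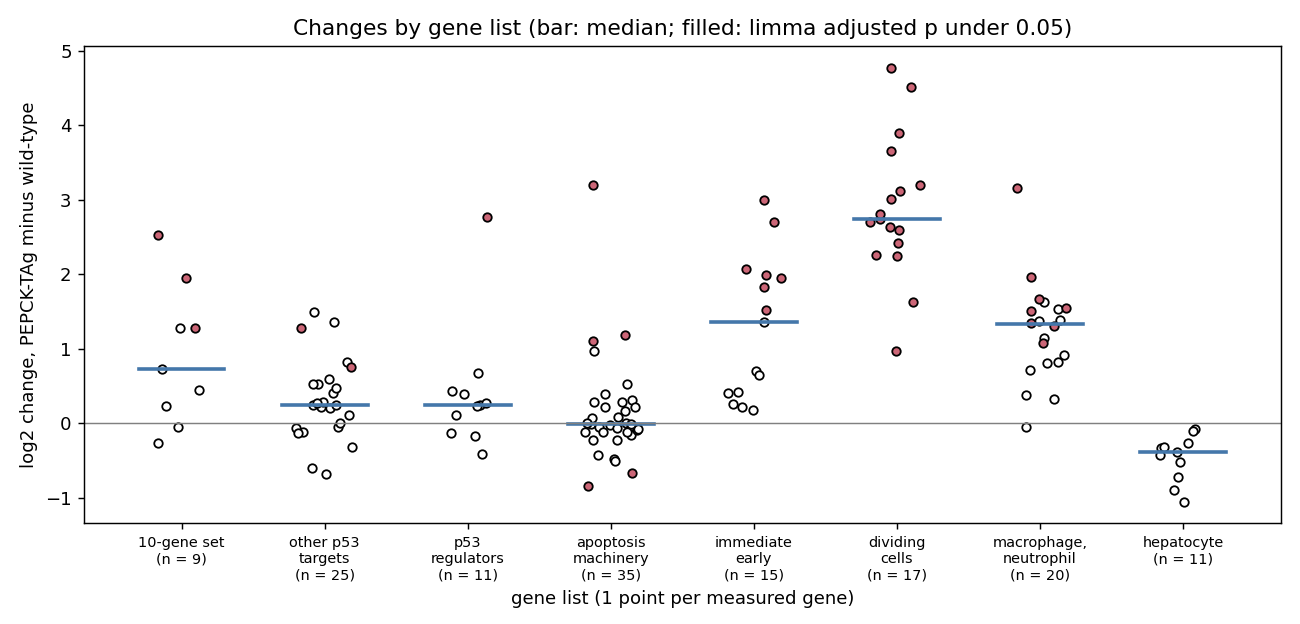
Log2 change, PEPCK-TAg minus wild-type, of each measured gene in 8 lists, read by its brightest probe set, with a bar at the list median and filled points for an adjusted p under 0.05. The 9 measured genes of the 10-gene set have a median of 0.73, other p53 targets and p53 regulators of 0.25 each, apoptosis machinery of -0.01 and the 17 genes of dividing cells that passed the filter of 2.75, 6 of them dim in wild type.

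The genes whose pattern over the 4 arrays lay nearest to each probe set that rose were found by the Euclidean distance between log2 profiles centred on their own means. Nearest to the U09507 probe set of Cdkn1a were Aurka (0.21), Prc1 (0.23) and Cxcl1 (0.25), and nearest to the AW048937 probe set were Nek2 (0.09), Inppl1 (0.14) and Wdhd1 (0.14), with distances in log2 units. Nearest to Btg2 were Cdca7l (0.06), Rpa1 (0.09) and Cdca5 (0.11), and nearest to Apaf1 were Tap2 (0.06), Tmem176a (0.09) and Stk10 (0.10). With 4 arrays in 2 groups such a distance follows the size of the change and the spread within each group.

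Other gene groups moved with the rise of Cdkn1a, Btg2 and Apaf1, and their part in it was not tested. Of 22 genes of dividing cells 20 were on the array, and with no filter on dim probe sets 16 of the 20 were called higher (limma adjusted p under 0.05), with a median of 2.67. With the filter 17 were tested and called, but 6 of them, Cdk1, Mki67, Top2a, Birc5, Aurka and Mcm2, had a wild-type mean below it and so had to differ to be tested. The 17 had a summed signal of 1634 to 1791 in wild type and 10748 to 13676 in PEPCK-TAg. Cdk1 and Ccnb2 had the smallest p. Mki67 rose by 4.77 in the probe set that was read, and its other one had a change of -0.27 that did not pass. Of 16 immediate early genes 15 were measured, Btg2 and Gadd45b among them, and 7 rose, Btg2 itself included. Among all genes tested 6.83% were called higher. The 15 had a median of 1.36 and a summed signal of 3495 to 3948 in wild type and 5857 to 7631 in PEPCK-TAg. Atf3 (2.71) and Klf6 (1.99) had the smallest p. In this list 4 genes, Fos, Jun, Myc and Gadd45b, had a wild-type mean below the filter. Fos, Jun and Myc were among the 7 called, and they entered the test through PEPCK-TAg. With no filter on dim probe sets 5 of the 16 were called. The median was 0.86 without PEPCK-TAg replicate 1 and 0.56 under a 60th percentile filter, where 4 genes were called.

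In bulk liver RNA, fewer cells of a type and less RNA per cell cannot be told apart. Of 29 macrophage and neutrophil markers 20 were measured and 8 rose (limma adjusted p under 0.05), led by Mpeg1 and Cd14. Of the 20 changes 19 lay above 0, and 12 did not pass, among them the macrophage genes Adgre1 (0.38) and Csf1r (0.33). Elane, a neutrophil gene, had a change of -0.04. S100a8, S100a9 and Mpo were below the filter and not tested. Among all genes tested 6.83% were called higher. The 20 had a median of 1.33 and a summed signal of 5224 to 8983 in wild type and 15909 to 21761 in PEPCK-TAg. Leaving out PEPCK-TAg replicate 2 gave 3 calls and leaving out wild-type replicate 2 gave 13, while no filter gave 4 and no mean-variance trend 5. Of 20 markers of T, natural killer and B cells, which carry Fas, 6 were measured and 0 passed. The 6 were Ms4a1, Jchain, Cd79a, Ighm, Zap70 and Cd4. Klrd1, Gzma, Gzmb, Cd8a, Cd3d, Cd3e and Cd3g were below the filter and not tested. The 6 therefore say little about T and natural killer cells. At an unadjusted limma p under 0.05, 1 was higher (Jchain) and 1 lower (Ms4a1), against 16.6% and 11.3% of all genes tested. Another Ms4a1 probe set, below the filter, ran the other way, at 19.3 and 16.9 in wild type against 42.3 and 58.4 in PEPCK-TAg. The summed signal of the 6 was 533 to 655 in wild type and 566 to 767 in PEPCK-TAg. Leaving out the first array of either group gave 1 higher call, and median centring 1 lower.

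Of 11 hepatocyte markers, 0 passed and 6 were lower at an unadjusted limma p under 0.05, led by Apoa1 and Fga. Among all genes tested 11.3% were lower at that threshold. The 11 markers had a median of -0.38 and a summed signal of 82857 to 95339 in wild type and 64236 to 72105 in PEPCK-TAg. Lower calls numbered 2 with wild-type replicate 2 left out or with median centring, and 1 with PEPCK-TAg replicate 1 left out or the filter at the 60th percentile. Of 13 measured endothelial markers, 0 passed and 4 were lower at an unadjusted limma p under 0.05, against the same 11.3% of all genes tested. Kdr and Flt1 had the smallest p. The endothelial median was -0.49, and 3 of the 13 changes lay above 0, those of Lyve1 (0.73), Cdh5 (0.08) and Pecam1 (0.05). By adjusted p, 6.83% of all genes tested were called higher. Of 11 stellate cell and matrix genes 1 rose, Col3a1 (1.44), ahead of Lum. Another tested Col3a1 probe set had a change of 0.50 that did not pass (limma adjusted p = 0.392). With no filter on dim probe sets 0 stellate cell and matrix genes were called. Of 6 red blood cell genes 1 rose, Car2 (2.27). Alas2, next by p, was lower in PEPCK-TAg, with a log2 difference of -2.01 that did not pass (limma adjusted p = 0.0968) and that was called when wild-type replicate 1 was left out. Col3a1 gave no call when either wild-type array or the second PEPCK-TAg array was left out. Of 10 bile duct genes 7 were on the array and 3 were measured. These 3, Krt8, Krt18 and Anxa4, rose, the keratins being also those of hepatocytes, and 1 of them was called when wild-type replicate 1 or the second PEPCK-TAg array was left out. The other 4, Krt19, Krt7, Epcam and Cldn7, were below the filter and not tested, and the defining marker Krt19 read 1.8 to 5.0 over its 2 probe sets. These summed signals and counts are those of the deposited arrays, and 3' over 5' control ratios were 4.06 to 5.06 for actin and 2.95 to 3.80 for Gapdh.

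**Figure D4:**
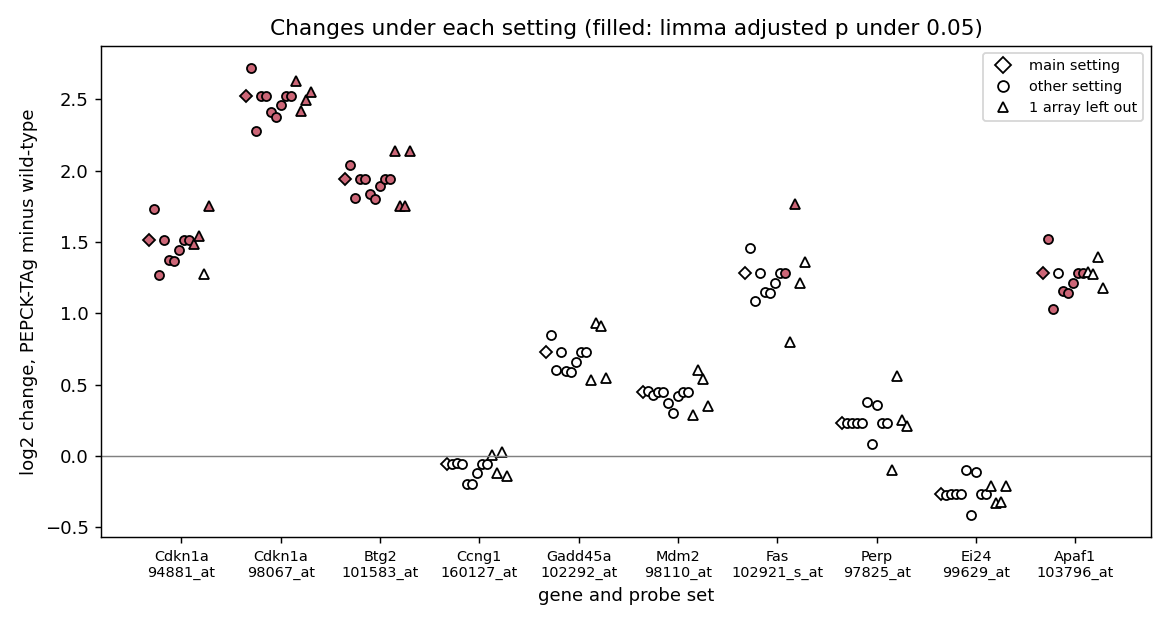
Log2 change, PEPCK-TAg minus wild-type, of the 10 tested probe sets in the main setting (diamonds), with another processing choice (circles) and with 1 array left out (triangles); filled symbols have an adjusted p under 0.05. The U09507 probe set of Cdkn1a and Btg2 are filled throughout, Apaf1 is open without any 1 array, and Gadd45a, Mdm2, Perp, Ei24 and Ccng1 are open throughout.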

How the data were processed

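The deposited table holds linear signal intensities that the authors made with MAS5, per the submitters' processing notes, and its version and scaling target are not stated there. A mean trimmed by 2% at either end came to 250.2 on each array, and no further normalization was applied. Gene symbols came from the platform annotation. For 11 of 11 probe sets of the chosen genes the Entrez identifier led to the same symbol in RefSeq (GRCm38.p6).

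Signals were analysed as log2(signal + 13), which understates the change of dim genes. The 66 control probe sets were left out, and probe sets were kept when their mean reached the 40th percentile, which left 7453 probe sets and 5650 genes. The groups were compared by limma 3.58.1 in R 4.3.3 (lmFit, eBayes with a mean-variance trend; 2 residual and 4.61 prior degrees of freedom), two-sided, with Benjamini-Hochberg adjustment over all tested probe sets and a threshold of 0.05. An exact permutation test of 2 arrays against 2 cannot reach that threshold and was not run. Precision is limited by having 2 arrays a group.

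The members, gene lists and tests were chosen with earlier results of these data known. All member probe sets were named, with all paralogs that had a probe set. In the lists of other p53 targets, p53 regulators and apoptosis machinery the genes past the threshold and up to 4 others of smallest p were named, in the marker lists the 2 of smallest p, and Pck1, Mki67 and Alb always. In lists a gene was read by its brightest kept probe set. Alternatives were the offset, the filter, the normalization, the variance model, a replicate block and leaving out each array. The instrument records deposited with the arrays give all 4 the same chip lot and fluidics station and each its own fluidics module, so no block smaller than the whole series could be fitted from them.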

Additional observations from a re-analysis of the deposited data

Results flagged for a closer look

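The control probe set for mouse Fas, AFFX-MurFAS_at, carries a signal that the comparisons left out, since control probe sets entered no test. It was higher in PEPCK-TAg by 0.81 in log2, with 232.6 and 264.9 against 127.1 and 146.2 in wild type. No group holds enough arrays to look for single arrays that stand apart, and the series has 1 contrast, so no effect could be compared between groups.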

How the results depend on the processing

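Results below are counts past a limma adjusted p of 0.05 unless given as log2 changes. The U09507 probe set of Cdkn1a and Btg2 were called in each of 13 alternatives, the AW048937 probe set of Cdkn1a in 11 of 12, Apaf1 in 7 of 12, the tested Fas probe set in 2 of 12, and Gadd45a, Mdm2, Perp, Ei24 and Ccng1 in 0 of the 12 or 13 in which each was tested. Of the chosen probe sets 4 were higher, and 3 with no filter on dim probe sets, where Apaf1 lost its call. A filter at the 60th percentile gave 2, since it left Apaf1 and the AW048937 probe set of Cdkn1a untested. That count was 2 to 4 without 1 array, 5 with the replicate block, where the tested Fas probe set was added (adjusted p 0.0266), and 5 with the Fas control probe set in the fit. The count of lower ones was 0 throughout. Over all probe sets 477 were higher, and 288 to 420 without 1 array. Higher ones numbered 696 with the replicate block. With median centring the split was 403 higher and 409 lower. The 229 lower ones became 105 with no filter, 117 without the mean-variance trend, 444 with the replicate block and 110 to 143 without 1 array. Median centring moved the median of all probe sets from 0.01 to -0.14.

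The 2 higher genes among other p53 targets became 0 with no filter, quantile normalization or median centring, 1 with cyclic loess, no trend or a 60th percentile filter, 4 with the replicate block (1 lower there) and 0 to 1 without 1 array. The p53 regulators had 2 higher genes with no filter and 0 under a 60th percentile filter, which left Chek1 out. The apoptosis genes had 0 to 3 higher and 0 to 1 lower without 1 array, and 0 lower with no filter, quantile normalization, cyclic loess or no trend. Signs turned, with every adjusted p at those settings above 0.5, as follows. Over the fits without 1 array the log2 change ran from -0.14 to 0.03 for Ccng1, from -0.10 to 0.56 for Perp, from -0.019 to 0.238 for Mdm4, from -0.003 to 0.372 for Btg1, from -0.306 to 0.224 for Tob1, from -0.087 to 0.574 for Ccng2 and from -0.327 to 0.23 for Bok. Median centring gave -0.034 for Mdm4, and Tob1 was 0.074 with quantile normalization and 0.075 with cyclic loess. Except where fewer probe sets or arrays entered, the cause was not tested.

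Arrays of the groups share replicate numbers, and same-numbered arrays deviated together with r = 0.181 over 7453 probe sets. With 2 pairs and no label that ties them, this does not show pairing. The replicate block raised the calls over all probe sets, from 477 to 696 higher and from 229 to 444 lower. The replicate block called 6 hepatocyte markers lower in place of 0, 15 macrophage and neutrophil markers higher in place of 8, 2 paralogs higher in place of 0 (Cdkn1c and Gadd45b), 1 lymphocyte marker higher in place of 0, and 1 endothelial marker and 1 red blood cell gene lower in place of 0 each. With 1 array in a group the fit assumes that it varies like the arrays of the other group. Dim genes such as Apaf1 and Gtse1 are limited by signal near the filter.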

Other observations

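The probe sets that carry the symbol of the p53 pseudogene, Trp53-ps, were singled out after their values were seen. The dimmer one measured 51.4 and 49.7 in wild type and at most 56.9 in PEPCK-TAg, and the brighter one 314.3 and 181.5 against 265.0 and 249.9. Neither passed (limma, Benjamini-Hochberg adjusted p = 0.911 and 0.853).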
